A study of Mus musculus with 2 samples.

Results

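ILC1-like Xcl1 Gzmc cells were rare lymphocytes of the mouse eye, 56 of the 7400 cells that passed the quality filter, 32 of 3418 in the flox library and 24 of 3982 in the knockout library. They were chosen by their own raw counts of unique molecular identifiers (UMIs, the tags that count RNA molecules once): no Cd3d or Cd3e UMI, at least 1 UMI of Ncr1, Klrb1c or Klrb1b, no UMI of Klra8, Klra4 or Itga2, at least 2 UMIs of Xcl1, Gzmc and Car2 together, no Cd79a UMI and fewer than 5 Lyz2 UMIs. The cells most like them, 179 and 242 NK cells of the same libraries, met the same criteria on Cd3, NK receptors, Cd79a and Lyz2 but had at least 1 UMI of Klra8, Klra4 or Itga2, and are called Ly49/CD49b NK cells here. The series compared single-cell RNA from CD45+ leukocytes sorted out of digested retinal pigment epithelium and choroid. All mice had been injected intraperitoneally with NaIO3, an oxidant toxic to the pigment epithelium, at 20 mg/kg. The control library is labelled with the genotype IL-17ra fl (flox) and the other with IL-17RA CKO (knockout), each being 1 library. The labels give no Cre driver, deleted exon, age, time after injection or number of animals, and no untreated mice were analysed here.

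NK cells and group 1 innate lymphoid cells (ILC1) are innate relatives of T cells that lack a rearranged antigen receptor and share NK1.1 and NKp46 and the transcription factor T-bet. Circulating NK cells depend on Eomes, carry Ly49 receptors and CD49b, recirculate through S1PR5 and kill with perforin and granzymes. ILC1 stay in tissues, carry CD49a, CXCR6 and TRAIL, and are known in liver and salivary gland for interferon-gamma and, in some tissues, granzyme C. Xcl1 encodes a chemokine that attracts cross-presenting dendritic cells.

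RefSeq sequence (GRCm38.p6) of the 250 bases before the start of 3 genes is shown because Xcl1 and Gzmc define the cells and Gzma was called lower in them than in the NK cells of both libraries. Xcl1 lies at chr1:164935523-164935772, Gzmc at chr14:56234658-56234907 and Gzma at chr13:113100982-113101231, all on the minus strand. Capitals mark matches on either strand to a T-box motif, GGTGTGA, and a RUNX motif, TGTGGTT, the binding letters of factors that act in NK cells and ILC1.
Xcl1: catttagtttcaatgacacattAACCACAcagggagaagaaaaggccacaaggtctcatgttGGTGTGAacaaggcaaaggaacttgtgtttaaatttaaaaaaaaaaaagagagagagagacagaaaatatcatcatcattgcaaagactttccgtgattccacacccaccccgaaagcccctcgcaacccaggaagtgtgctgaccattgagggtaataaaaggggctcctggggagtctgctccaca
Gzmc: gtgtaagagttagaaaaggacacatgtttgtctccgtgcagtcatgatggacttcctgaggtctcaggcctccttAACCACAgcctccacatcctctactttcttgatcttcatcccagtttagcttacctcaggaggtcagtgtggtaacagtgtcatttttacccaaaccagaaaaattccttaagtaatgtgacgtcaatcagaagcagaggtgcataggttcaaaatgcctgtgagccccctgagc
Gzma: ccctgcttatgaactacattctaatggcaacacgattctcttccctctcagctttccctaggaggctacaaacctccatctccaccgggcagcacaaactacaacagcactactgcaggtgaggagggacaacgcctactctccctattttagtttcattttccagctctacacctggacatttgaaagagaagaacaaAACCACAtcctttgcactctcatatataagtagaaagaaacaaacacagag
Each of the 3 windows held 1 RUNX match, as did 4.4% of the 32851 promoter windows of this length. The Xcl1 window alone among these held a T-box match, which 3.33% of all windows had. Neither match was tested as a binding site.

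The libraries held median depths of 8744 and 7714 UMIs per kept cell in flox and knockout, and the gated cells 9236 (range 3025 to 30517) and 8147 (1898 to 13911), against 7196 and 6732 in the Ly49/CD49b NK cells. The kept cells of the 2 libraries shared 3 barcodes, none of them in a gated cell, and Scrublet called none of the gated cells a doublet. Il17ra, the gene named in the genotypes, was at 56.4 CPM (UMIs of a gene per 1000000 UMIs summed over the cells of a population) in 13 of 32 flox gated cells and at 31.9 CPM in 5 of 24 knockout ones, a ratio of 0.565 (95% interval 0.184 to 1.49). The labels do not say which exons were removed, and the reads come from transcript ends, so these values do not check the genotypes. With 1 library per group there is no test and no p-value, and every interval covers counting error only.

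The markers of the label were uneven. Xcl1 had a UMI in 53 of the 56 cells, with a median of 11 UMIs per flox cell (0 to 163) and 9 per knockout cell (1 to 34). Gzmc, a granzyme of the mouse chromosome 14 cluster, had a UMI in 20 of 32 flox and 17 of 24 knockout cells, with medians of 5.5 (0 to 166) and 4 (0 to 78). Both were rare in the B cells of the same libraries, where at most 0.663% of cells had an Xcl1 UMI and at most 0.342% a Gzmc UMI, at median depths of 6000 and 6363 UMIs. Xcl1 stood at 2196 and 1630 CPM in gated cells against 249 and 324 CPM in NK cells, and Gzmc at 1976 and 2108 against 68.1 and 5.69 CPM, differences that the rule itself selects. Klrb1b, an NK receptor of the NKR-P1 family, was at 727 and 770 CPM against 400.5 and 385 CPM.

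Car2 and Styk1 set the cells apart less. Car2, a carbonic anhydrase, was found in 46.9% of flox and 58.3% of knockout gated cells but also in 44.7% and 36.4% of Ly49/CD49b NK cells and in 10.8% and 11.4% of B cells. After thinning every cell to 2000 UMIs these shares were 21.9% and 30.4% in gated cells, 16.9% and 17.8% in NK cells, and 4.36% and 4.25% in B cells, with 1 knockout gated cell, 2 and 6 NK cells and 10 and 11 B cells too shallow to be thinned. Styk1, a kinase-like receptor, was at 351 and 340 CPM in gated cells and at 190 and 192 CPM in NK cells, 1.85-fold (1.47 to 2.31) and 1.77-fold (1.34 to 2.32), which did not meet the criterion for a called difference. A difference is called here where both groups together held at least 20 UMIs, the higher group reached 50 CPM and 10% of its cells, and the 95% interval of the ratio lay beyond 1.5-fold. Without 2 flox gated cells rich in Cd74 UMIs, described below, the flox ratio of Styk1 was 2.17 (1.73 to 2.71), which was called.

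Most cells carried the ILC1 features that the rule did not use. Itga1, Cxcr6 or Tnfsf10 had a UMI in 49 of 56 cells, all 24 of the knockout library and 25 of 32 of the flox library, and 40 cells had Itga1 with no Eomes. Some cells had features that go against the label. In 2 flox cells there was no Ncr1 or Klrb1c UMI, Cd74, the invariant chain of antigen-presenting cells, stood at 578 and 695 UMIs against 6 in the next highest flox gated cell, and these 2 cells held 14.9% of all flox gated UMIs. A further 11 cells, 8 flox and 3 knockout, had Eomes or at least 10 Gzma UMIs, features of circulating NK cells. These overlap with the 49 cells above: all 3 knockout cells are among them. So is a flox cell with 12 Gzma, 13 Itga1 and 7 Cxcr6 UMIs. A flox cell with 41 Xcl1 UMIs and another with 10 had no UMI of Itga1, Cxcr6, Tnfsf10, Eomes or Gzma. Few cells without a UMI of Klra8, Klra4 or Itga2 lay near the rule's marker threshold. Among them, 1 gated cell had exactly 2 marker UMIs and no knockout cell had 1 or 2. Another 4 flox cells, ungated, had exactly 1, all 4 with over 100 Cd74 UMIs. Of the Ly49/CD49b NK cells, 69 in flox and 76 in knockout also had at least 2 marker UMIs. In the map of single cells, the 2 Cd74-rich cells and 7 of the 8 cells with at least 10 Gzma UMIs had at most 1 Gzmc UMI, and the remaining one, a flox cell with 13 Gzma UMIs, had 47.

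**Figure D1:**
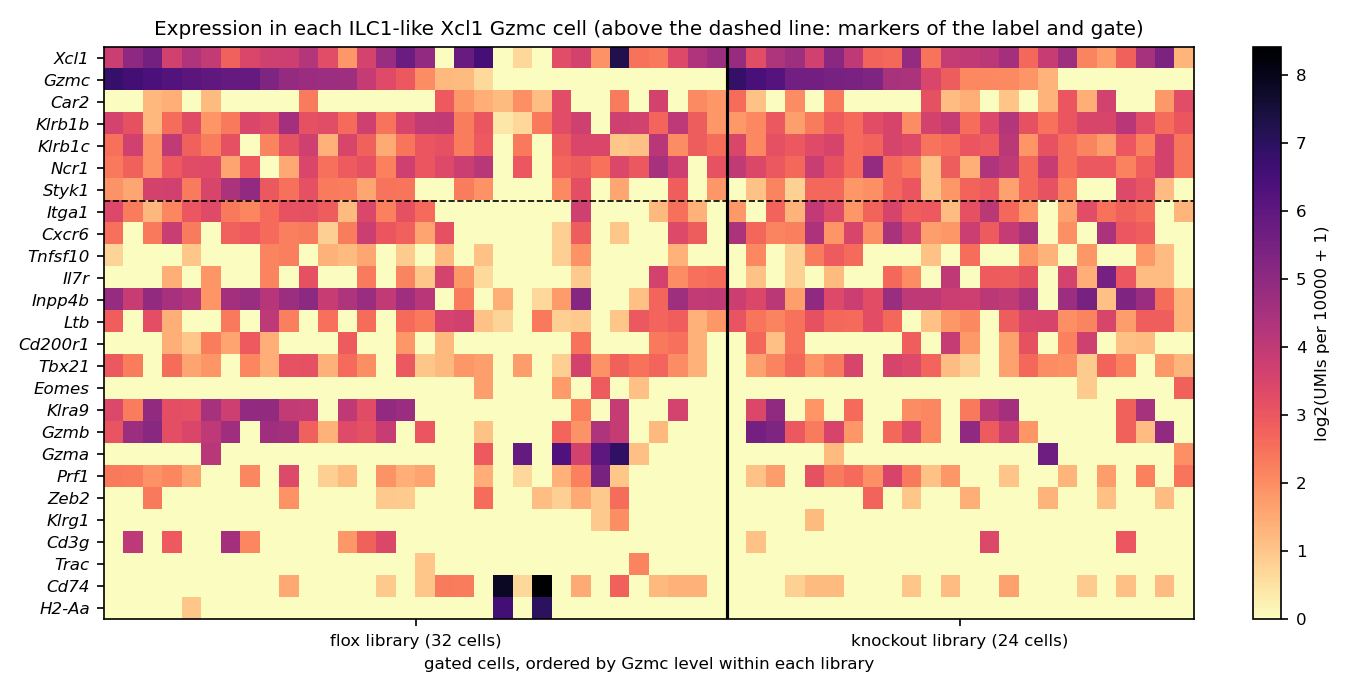
Each column is one of the 56 gated cells, ordered by Gzmc level within its library, and each row a gene; colour gives log2(UMIs per 10000 + 1). Itga1 and Cxcr6 fill most columns, Eomes few, and 2 flox columns are dark for Cd74 and H2-Aa.

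Against the Ly49/CD49b NK cells, 94 genes were higher in the gated cells of both libraries, 1.26% of 7472 genes with enough UMIs, and 80 were lower, 1.07%. In a single library the called shares were 2.30% higher and 1.91% lower in flox, and 2.76% higher and 1.93% lower in knockout. The 13 genes of the rule are left out of these counts. Because the 2 populations were cut by the rule, these differences describe the cells and are not tested. Without the 2 Cd74-rich cells 105 genes were higher and 78 lower, 86 and 72 of them shared with the first counts. The median log2 ratio of all genes was -0.04 in each library.

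The tissue ILC1 genes were the clearest group, but the list was chosen with earlier results of these data known. Its counts and medians describe the cells and are no separate support for their name. Of 12 listed, 11 were called higher in both libraries and the remaining gene, Zfp683, which encodes Hobit, had only 4 and 3 UMIs in the gated cells; the list's median log2 ratio was 3.46 in flox and 3.82 in knockout. Itga1, the CD49a collagen receptor, was at 332 and 488 CPM in gated cells and 30.0 and 42.6 CPM in NK cells, 11.1-fold (7.73 to 16.1) and 11.5-fold (8.35 to 15.8) higher. Cxcr6, the receptor for CXCL16, was at 298 and 711 CPM against 15.7 and 18.2 CPM. Tnfsf10, which encodes the death ligand TRAIL, was at 68.9 and 154 CPM against 6.81 and 10.8 CPM. All 3 lay above the NK level in both libraries.

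The list also holds receptors and signalling genes. Cd200r1, an inhibitory receptor for CD200, was at 94.0 and 308 CPM against 2.73 and 4.55 CPM, 34.5-fold (12.2 to 135) and 67.7-fold (32.2 to 164) higher. Il7r, the interleukin-7 receptor, was at 141 and 499 CPM against 17.0 and 31.8 CPM. Inpp4b, a phosphoinositide phosphatase, was at 1187 and 1593 CPM against 65.4 and 118 CPM. These genes are not limited to ILC1: Inpp4b and Ltb, which encodes lymphotoxin beta (310.1 and 457 CPM against 50.4 and 51.2), also had UMIs in B cells, in 68.8% and 69.6% of them for Inpp4b and 89.0% and 92.6% for Ltb. Tmem176a, Tmem176b, Gpr183 and Il21r were called higher in both libraries as well, with ratios from 2.98 for Il21r in flox to 60.7 for Tmem176b in knockout.

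Genes outside the list that led the ranking were Asb2, a ubiquitin ligase subunit (107 and 90.3 CPM against 3.41 and 2.84), the olfactory receptor gene Olfr1259 (125 and 122 against 4.09 and 1.14), the semaphorin Sema6d (119 and 111 against 4.09 and 3.41) and the adaptor Dok6 (81.4 and 90.3 against 2.73 and 2.84). Ctla4, the inhibitory receptor best known from T cells, was at 94.0 and 228 CPM against 8.17 and 6.82 CPM. Cdh1, which encodes E-cadherin, was at 72.0 and 117 CPM against 7.49 and 3.98 CPM. Jaml, an adhesion molecule, and Ramp1, a subunit of the CGRP receptor, closed the 15 highest. For Ramp1, 55% of the flox UMIs came from a single cell.

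Circulating NK genes, also listed with earlier results of these data known, were lower. Of 14 listed, 13 were called lower in both libraries and S1pr1 in neither, with list medians of -2.57 in flox and -4.48 in knockout on the log2 scale. Gzma, which encodes granzyme A, was at 1337 and 191 CPM in gated cells and 14199 and 13969 CPM in NK cells, 10.6-fold (9.65 to 11.7) and 73.1-fold (52.8 to 104) lower. A UMI of Gzma was found in 8 of 32 and 3 of 24 gated cells against 95.5% and 95.9% of NK cells. Prf1, perforin, was at 288 and 186 CPM against 1603 and 1565 CPM. Zeb2, a repressor needed for NK maturation, was at 87.7 and 42.5 CPM against 634 and 794 CPM.

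Eomes separated the populations while Tbx21 did not. Eomes was at 47.0 and 26.5 CPM in gated cells, from 4 and 2 cells, and at 175 and 188 CPM in NK cells, 3.73-fold (2.22 to 6.75) and 7.09-fold (3.01 to 22) lower. Tbx21, which encodes T-bet, was at 298 and 324 CPM against 337 and 341 CPM, ratios of 0.882 (0.701 to 1.10) and 0.949 (0.717 to 1.24). Klrg1, Cx3cr1, S1pr5 and the mast cell protease Cma1 were nearly absent: Cx3cr1, S1pr5 and Cma1 had no UMI in the knockout gated cells, which with a floor of 3 counts over the population makes them at least 11.9-fold, 11.3-fold and 25.4-fold lower than in NK cells. Of the other transcription factors, Ikzf2 (Helios) and Ahr were called higher in both libraries, and Irf8 and Klf2 lower. Without the 2 Cd74-rich cells the flox ratio of Ahr was 2.27 (1.09 to 4.46), which was not called.

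Ly49 receptors other than those of the rule divided. Klra1 had no UMI in gated cells, at least 18.5-fold and 10.5-fold lower than the 174 and 167 CPM of NK cells, and Klra7 (Ly49G) and Klra3 (Ly49C) were called lower in both libraries. Klra9, which encodes Ly49I, was at 717 and 531 CPM against 761 and 780 CPM, ratios of 0.943 (0.814 to 1.09) and 0.681 (0.550 to 0.834). It had a UMI in 18 of 32 and 11 of 24 gated cells against 67.6% and 74.8% of NK cells. Ly49 genes are near-identical copies, so reads may be shared between them.

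Other receptors and effectors differed gene by gene. Among 22 other NK receptor genes with enough UMIs, Cd226 (DNAM-1; 395 and 462 CPM against 57.9 and 88.7), Cd160 (175 and 95.6 against 40.2 and 33.0) and Cd7 (796 and 722 against 170 and 128) were called higher in both libraries and Klre1 lower. Gzmb, granzyme B, was lower in flox (673 against 1757 CPM) and not called in knockout (1030 against 1287 CPM). Gzmd, Gzme, Gzmf and Gzmg, neighbours of Gzmc in its cluster, had no UMI in the gated cells or the NK cells of either library. Ccl5 was at 5165 and 2867 CPM against 18991 and 18249 CPM, called lower in both. Ifng, interferon-gamma, was higher in flox (263 against 85.8 CPM) and not called in knockout (127 against 178.5 CPM). The share of cells with an Ifng UMI was no higher, 34.4% and 45.8% of gated cells against 36.3% and 48.3% of NK cells.

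Cytokine receptors moved in opposite directions. Besides Il7r and Il21r, Kit was called higher in both libraries, but without the 2 Cd74-rich cells its flox level was 11.0 CPM, 0.676 (0.130 to 2.22) of the NK level. Il12rb2 and Il18rap, receptor chains for the cytokines that drive NK activation, were 3.23-fold and 3.02-fold lower in flox and 2.77-fold and 3.31-fold lower in knockout. Il2rb, the shared receptor of interleukins 2 and 15, was at 905 and 1019 CPM against 711 and 734 CPM and was not called. Cish, a target of those cytokines, was called higher in both libraries (90.8 and 138 CPM against 21.1 and 15.4). None of the 10 MHC class I genes was called in both, which is near the share over all genes, 1.26% higher and 1.07% lower.

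**Figure D2:**
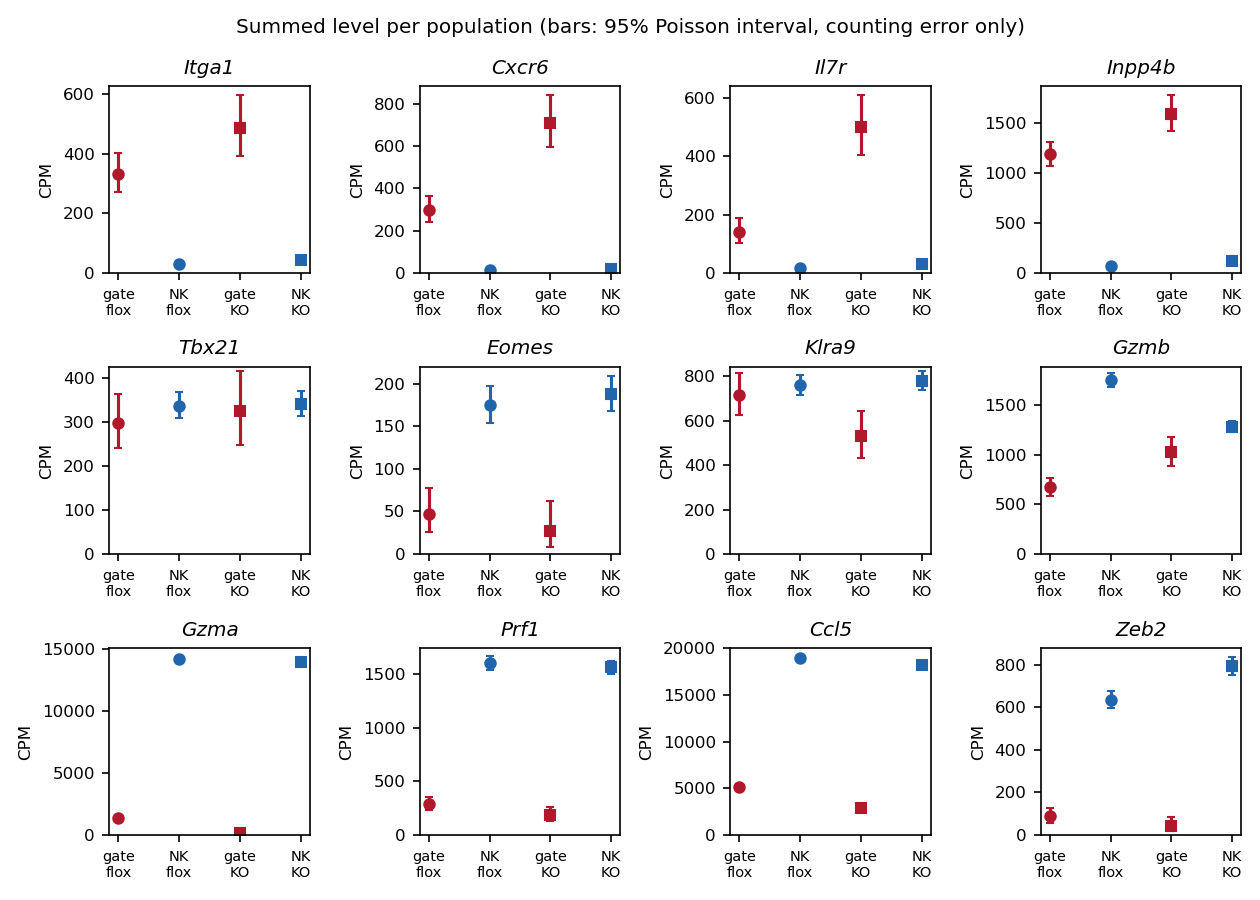
CPM of 12 genes in gated cells (red) and Ly49/CD49b NK cells (blue) of the flox (circles) and knockout (squares, KO) libraries; bars are 95% Poisson intervals and each axis starts at 0. Itga1, Cxcr6, Il7r and Inpp4b are higher in the gated cells, Gzma, Prf1, Ccl5, Zeb2 and Eomes lower, and Tbx21 overlaps.

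Some defining markers of other lymphocytes were absent and others were not. Cd4, Cd8a, Cd5 and Cd6 had no UMI in any gated cell, and Trac, the constant segment of the alpha T cell receptor, was found in 2 flox cells. Cd3g had a UMI in 7 flox and 3 knockout cells (135 and 53.1 CPM against 1.36 and 1.71 in NK cells), and all 7 flox cells but only 1 of the 3 knockout cells also had at least 3 Gzmc UMIs. Requiring Cd3g at 0 left 25 and 21 cells, with 80 genes called higher and 75 lower. Trbc2 was at 413 and 483 CPM, against 209 and 197 CPM in NK cells and 1421 and 1285 CPM in T cells, and Trbc1 had a UMI in 47 of the 56 cells. Tcrg-C4, a constant segment of the gamma T cell receptor, was at 94.0 and 191 CPM against 10.9 and 5.12 CPM in NK cells. Ighm, the immunoglobulin heavy chain of B cells, was at 97.1 and 175 CPM against 32.0 and 35.8 CPM. Both were called higher in both libraries and were chosen after their values were seen. Il1rl1, the interleukin-33 receptor of ILC2, had no UMI in any gated cell. The summed level of the 8 myeloid markers in the files was 5785 and 165 CPM in gated cells and 706 and 556 CPM in NK cells, with 3 and 5 of them at 0 in the gated cells. Cd74 alone made 4056 CPM of the flox sum. Without the 2 Cd74-rich cells, flox Cd74 was at 81.0 CPM and H2-Aa at 3.68 CPM, 0.187 and 0.0201 of the NK level. Itgax was then at 140 CPM, 1.74 of the NK level (1.17 to 2.53), and was not called.

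Within the gate, 17 of 32 flox and 14 of 24 knockout cells had at least 3 Gzmc UMIs, a division chosen after the values were seen. Compared with the other gated cells of their library, leaving out the 2 Cd74-rich cells, 3 genes were called higher in both libraries (0.184% of 1629) and 3 lower (0.184%). Gzmb was at 1163 and 1483 CPM in the Gzmc cells and at 375 and 414 CPM in the rest. Ctla4 (181 and 350 CPM against 31.2 and 62.7) and the myosin Myo1e (689 and 442 against 102 and 138) were the others higher. Of the 36 knockout Gzma UMIs, 33 came from 1 cell, which had 1 Gzmc UMI. Gzma was lower in the Gzmc cells, at 90.5 and 9.21 CPM in the Gzmc cells and 3234 and 439 CPM in the rest. Rora, a factor shared by ILC subsets, and Emb, the adhesion protein embigin, followed the same direction (Rora 34.8 and 120 against 164 and 489 CPM; Emb 20.9 and 157 against 773 and 1592 CPM). Eomes had no UMI in any of the 31 Gzmc cells, and Klra9 was found in 23 of them but in 6 of the other gated cells.

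**Figure D3:**
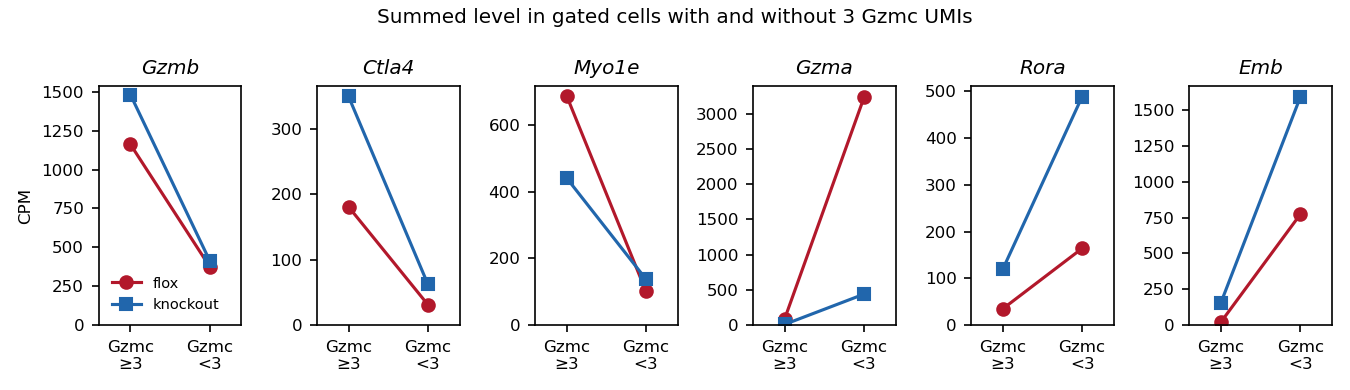
CPM summed over gated cells with at least 3 Gzmc UMIs and over those with fewer, in flox (red circles) and knockout (blue squares), without the 2 Cd74-rich cells; each axis starts at 0. Gzmb, Ctla4 and Myo1e are higher and Gzma, Rora and Emb lower in the Gzmc cells of both libraries. In knockout, 33 of the 36 Gzma UMIs came from 1 cell.

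The gated cells also lay close together when the genes of the rule were withheld. All 562 cells of both libraries that passed the NK criteria were clustered on 1500 variable genes without the 13 rule genes, and 43 of the 56 gated cells, 22 flox and 21 knockout, fell in 1 of 7 clusters together with 9 Ly49/CD49b NK cells and 1 other cell. Another 9 gated cells fell in a cluster with 43 NK cells, 2 in clusters of mostly NK cells, and the 2 Cd74-rich cells in a cluster where 53 of 57 cells had over 100 Cd74 UMIs. At lower and higher resolution the same number, 43, shared a cluster of 53 cells. The clusters were not named, and this is a description of the same cells rather than a test.

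Gated cells made up 0.936% (exact binomial 95% interval 0.641 to 1.32) of kept flox cells and 0.603% (0.387 to 0.895) of kept knockout cells, and 12.2% (8.51 to 16.8) and 8% (5.19 to 11.7) of the NK-gated cells. The intervals overlap. Both libraries mix cells with Xist and cells with Y-linked transcripts, in different proportions. Among female cells the share was 1.16% (0.757 to 1.69) in flox and 1.09% (0.634 to 1.73) in knockout, and among male cells 0.745% (4 cells; 0.203 to 1.90) and 0.218% (3 cells; 0.0449 to 0.634). Of the gated cells, 26 flox and 17 knockout were female. Animal and genotype cannot be told apart.

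Between the libraries, 24 genes were called higher (0.567% of 4232) and 61 lower (1.44%) in knockout gated cells. In the Ly49/CD49b NK cells 4 genes were called higher (0.0444% of 9000) and 2 lower (0.0222%). Those sums come from 179 and 242 cells, against 32 and 24 gated cells. The intervals do not cover variation between cells, so the called shares of gated and NK cells cannot be compared directly. Removing the 2 Cd74-rich cells left 18 higher (0.457% of 3935) and 32 lower (0.813%), of which 16 and 25 had been called before. The class II genes and Cd74 depended on those cells: Cd74 stood at 4056 CPM in the flox cells with them and 81.0 CPM without them, against 53.1 CPM in the knockout cells, the second giving a ratio of 0.656 (0.277 to 1.44). H2-Ab1 went from 1503 to 29.5 CPM in flox, against 10.6 CPM in knockout, and H2-Eb1, Spi1, Cd83 and Ifitm3, which had no UMI in knockout, were no longer called.

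Several genes of the tissue ILC1 profile were higher in the knockout library. Cxcr6 was 2.39-fold (1.82 to 3.14) higher and 2.03-fold (1.55 to 2.67) without the 2 cells. Cd200r1 was 3.28-fold (2.07 to 5.28) and 2.79-fold (1.76 to 4.49) higher. Il7r, at 141 and 499 CPM, was 3.54-fold (2.46 to 5.17) higher, but a UMI was found in 15 cells of each library, 41% of the knockout UMIs came from 1 cell, and among female cells the log2 ratio was 0.07. Rora, 3.39-fold (2.08 to 5.66) higher, was not called among female cells (log2 ratio 1.16). Ccr2, the receptor for CCL2, was at 94.0 and 303 CPM. The GTPase regulator Rgs18 (21.9 and 117 CPM), the lymphangiogenic factor Vegfc (28.2 and 127 CPM), the secretory GTPase Rab27b (43.9 and 207 CPM) and the receptor Gpr34 (31.3 and 117 CPM) were also higher, on 7 to 39 UMIs each. Of the 12 tissue ILC1 genes, 11 had enough UMIs, 3 were called higher and none lower, against 0.567% of all genes called higher. The list median was 0.69 against 0.04 for all genes, and the list was chosen with earlier results of these data known. When the rule was applied to cells thinned to 2000 UMIs, Cxcr6 (log2 ratio 0.67), Cd200r1 (1.21), Il7r (0.47), Rgs18 (1.4) and Vegfc (1.17) were not called. With the mean of each cell's CPM in place of the sum, Cd200r1 (0.96), Rora (1.17) and Vegfc (1.64) were not called.

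Of 8 circulating NK genes with enough UMIs, 4 were called lower in the knockout gated cells and none higher, against 1.44% of all genes called lower. The list median was -1.40 against 0.04 for all genes. This list was also chosen with earlier results of these data known, and its genes are not independent. For example, flox cells with 24, 16 and 20 Irf8 UMIs also held 69, 12 and 122 Gzma UMIs. Gzma was 7-fold (4.97 to 10.1) lower and 8.22-fold (5.85 to 11.9) without the 2 cells; its UMIs came from 8 flox and 3 knockout cells. Ly6c2, a surface protein of mature NK cells, was 10.0-fold (3.74 to 37.9) lower, from 6 and 3 cells. Klf2, which controls recirculation, was 5.31-fold (1.90 to 20.5) lower, and Irf8 3.61-fold (2.12 to 6.57) lower; with the rule on thinned cells neither was called (log2 ratios -0.80 and -0.66), and Klf2 was not called at a marker sum of 4 (-1.90) or with the mean of each cell's CPM (-1.87). Itga4, the alpha chain of VLA-4, was at 282 and 63.7 CPM, and Ccl3 at 341 and 79.6 CPM from 9 and 3 cells, not called on thinned cells (log2 ratio -0.18). Fos, an immediate early gene, was at 554 and 133 CPM, and 331 CPM in flox without the 2 cells, and was not called on thinned cells (log2 ratio -0.85). Fosb was at 166 and 5.31 CPM, and was also called lower in knockout NK cells (ratio 0.496). The number of gated cells with Eomes or at least 10 Gzma UMIs moved with these genes, 8 of 32 in flox and 3 of 24 in knockout, and its part in them was not tested.

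**Figure D4:**
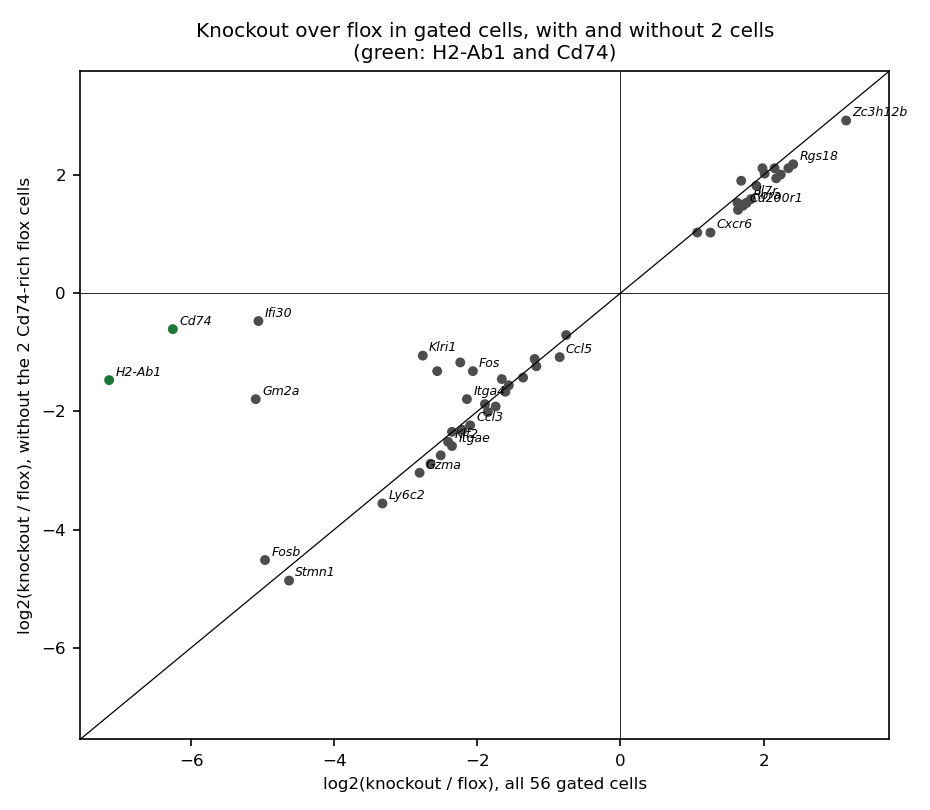
Log2 ratio of knockout to flox in all 56 gated cells (horizontal) and without the 2 Cd74-rich flox cells (vertical), for called genes with UMIs in both libraries that are also named, listed or still called without those cells; the diagonal marks equality. Cd74, H2-Ab1, Ifi30 and Gm2a leave the diagonal while Il7r, Cxcr6, Gzma and Ly6c2 stay on or near it.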

How the data were processed

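Live CD45+ cells of digested mouse RPE and choroid were profiled in 2 libraries with a 3' single-cell kit, per the labels' protocols. Per the submitters' processing notes, Cell Ranger processed the reads on the mm10 genome; per the file headers, version 4 wrote the flox matrix and 7.0.1 the knockout matrix, and what that difference changes was not tested. The deposited matrices hold raw UMI counts for every gene in each barcode. The flox matrix lists 1002803 barcodes, 783281 of them with a UMI, and the knockout matrix only 4096. What that difference in barcode selection changes was not tested either. Cells were kept at 1000 UMIs, 300 genes and under 10% mitochondrial UMIs. UMIs were summed per population (scipy 1.17.1, pandas 2.3.3) and scaled to CPM, with exact Poisson, conditional binomial and Clopper-Pearson 95% intervals; log2 ratios add 0.5 UMIs. Clustering used scanpy 1.11.5. The cells are not replicates, so no test was made. Genes named are up to 15 per direction for gated against NK cells, ranked by the smaller log2 ratio, up to 12 per direction for knockout against flox, and members of 24 gene lists, without rule, mitochondrial, ribosomal, immunoglobulin, haemoglobin and sex genes. On simulated counts with 200 genes changed 3-fold, the call rule recovered 87.5% (flox, 7741 genes), 79.5% (knockout, 8003 genes) and 69% (knockout against flox, 4211 genes). The simulated counts were Poisson sums without variation between cells, with each gene's UMIs spread over as many cells as possible. The recovered shares therefore do not show how the rule performs for genes whose UMIs come from few cells. The members and lists were chosen with earlier results of these data known. The Cd74 criterion was chosen after seeing the data.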

Additional observations from a re-analysis of the deposited data

Results flagged for a closer look

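Cst3, H2-Ab1 and Cd74 were called in opposite directions in the 2 libraries when gated cells were set against Ly49/CD49b NK cells, 3 of 177 genes called in both. The ratio was 3.68 in flox and 0.364 in knockout for Cst3, 7.83 and 0.104 for H2-Ab1, and 9.35 and 0.149 for Cd74. Without the 2 Cd74-rich flox cells the flox ratios were 0.693 for Cst3, 0.153 for H2-Ab1 and 0.187 for Cd74. Between knockout and flox, Cst3 was called lower in gated cells (ratio 0.184) and higher in NK cells (1.86), and Klf2 lower in gated cells (0.188) and higher in NK cells (1.71). None of these differences between libraries or populations was tested, as each group is 1 library.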

How the results depend on the processing

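No paired analysis was possible because each group is 1 library and no result comes from a test. The share of gated cells stayed within its counting interval except by sex, where the knockout share was 1.09% among female and 0.218% among male cells. For gated against NK cells, 61 genes were higher with a minimum of 50 UMIs per gene, 61 without the cell holding the most UMIs of each gene, and 10 higher and 3 lower among male cells, where the gate holds 4 and 3 cells. For knockout against flox, 72 genes were higher and 172 lower at a marker sum of 1, 14 and 40 at 50 UMIs per gene, and 15 and 36 without the top cell of each gene. The lower count was 32 with Ncr1 or Klrb1c required, 40 with 2 NK receptor UMIs, 18 with the gate on cells thinned to 2000 UMIs, 25 among male cells and 32 without the 2 Cd74-rich cells, which the Ncr1 or Klrb1c setting also removes. With the thinned gate, only 10 of the 24 higher and 9 of the 61 lower genes were called again. Calls were lost for Il7r (log2 ratio 0.47), Cxcr6 (0.67), Cd200r1 (1.21), Rgs18 (1.4), Vegfc (1.17), Arhgap5 (0.70), Arhgef18 (1.06), Haus3 (1.70), Klf2 (-0.80), Irf8 (-0.66), Fos (-0.85), Ccl3 (-0.18), Klra3 (-0.16), Ldha (-0.53) and Socs3 (-0.32). With the mean of each cell's CPM, 11 and 32 were called again. The causes were not tested.

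Signs reversed in single genes, given as log2 ratios. Gated over NK cells in flox, Cd74 was -1.0 with the thinned gate and -2.39 without the 2 cells, where Kit was -0.37. Maf in knockout was -0.50 among female cells. Zfp36, knockout over flox, was 0.05 with the thinned gate. Among male cells, the flox ratios were -0.26 for Ahr, -0.80 for Bst2, -1.72 for Cd69, -0.53 for Fos, 0.13 for Klra3, -2.80 for Ltb, 0.60 for Ly6c2, 0.05 for Nkg7, 0.20 for Nr4a2, 0.20 for Prf1, 0.22 for S1pr5 and -3.53 for Socs3; the knockout ratios were 0.19 for Ccl3, 0.16 for Ccl4, 0.55 for Cd74 and -1.41 for Il21r, and knockout over flox 0.38 for Ccl3. Depth limits genes under 20 UMIs in both groups together, which were not compared.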
